A study of Mus musculus with 12 samples.

Results

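Neutralization of TNF was followed here in muscle macrophages of mice that kept a single functional allele of Ifngr1. The comparison was made over all genes, with members given by the labels: the 6 libraries of genotype wt/null, out of 12 libraries in the series. They comprised 3 libraries from mice given an isotype antibody (isotype 1, 2 and 3, titled 40C3, 40B1 and 46C5) and 3 from mice given an anti-TNFA neutralizing antibody (anti-TNF 1, 2 and 3, titled 40A2, 40C1 and 46C7). Both groups carried a null allele of the receptor gene beside the wild-type allele, so the control was neither wild type nor free of antibody. Tibialis anterior muscles were injured with notexin, a snake venom toxin that destroys muscle fibres, antibody was injected into the peritoneum every day, and cells were sorted on day 5. The gate took living CD45+ CD11B+ cells and left out LY6G+ and SIGLECF+ cells, which are mostly neutrophils and eosinophils. Dendritic cells and monocytes can also lie in such a gate. The other 6 libraries, from null/null mice under the same antibodies, shared the estimate of spread and served as a comparison. The series asked how TNF and IFN-γ act together on macrophages during muscle regeneration. Whether each library came from a separate mouse is not stated, so p-values measure the spread between libraries, which may be technical.

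TNF is a cytokine made largely by macrophages as a membrane protein, which the protease ADAM17 cuts free. It binds TNFR1 (Tnfrsf1a), found on most cells, and TNFR2 (Tnfrsf1b), which is abundant on leukocytes. Both receptors recruit TRAF proteins and activate NF-κB, which in turn induces cytokines, chemokines and its own inhibitors. In injured muscle, TNF belongs to the early inflammatory phase, which infiltrating macrophages leave as they take up dying cells and become reparative. A neutralizing antibody acts on the protein, so the Tnf transcript does not check whether neutralization worked, and no other measurement of it was analysed here.

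The anti-TNF 2 library (40C1) stood apart from the other 5 wt/null libraries. Of 9979 well-expressed genes, 131 were more than 2-fold above all 5 other libraries in 40C1 and 85 were more than 2-fold below all of them, while each other library had 0 or 1 such high genes and 0 to 2 such low genes. On the first principal component of the 6 libraries (44.6% of the variance) 40C1 lay at 56.3 and the others between -15.3 and -7.16. The second component (23.7%) put isotype 3 and anti-TNF 3, whose titles begin with 46, at -22.1 and -27.1, and the 3 other libraries titled 40 at 13.8 to 18.1. What the title number stands for is not given. Results on the antibody in wt/null are therefore given with all libraries and without 40C1. In null/null, the anti-TNF library 40C2 also stood apart. Values without it are given for the dendritic marker median, the ribosomal protein median and the correlation between genotypes. The other null/null values, and the differences between genotypes, include 40C2 unless stated.

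Depth was 25.4 ± 2.28 M counts per library (mean ± SD, n = 3, M for mega) under isotype antibody and 26 ± 0.294 M under anti-TNF. The exact two-sided permutation p for depth was 0.7, where 0.1 is the smallest value that 3 against 3 can give. Ifngr1 (chromosome 10, 19591949 to 19610229, GRCm38) followed the labelled genotypes: it lay between 226 and 250 CPM (counts scaled to a library of 1 M) in all 6 wt/null libraries. In null/null it averaged 88.7 ± 1.33 CPM under isotype antibody and 96.4 ± 19.4 CPM under anti-TNF (SD, n = 3). The labelled cell type was present in every library. Csf1r, the receptor for the macrophage growth factor, measured 3589, 3831 and 3181 CPM under isotype antibody and 3357, 3497 and 3552 CPM under anti-TNF. Adgre1, which encodes F4/80, ranged from 1368 to 1739 CPM. All 12 macrophage markers had a 95% interval of the antibody log2 fold change that lay within 2-fold, with a median log2 fold change of 0.0096, and of 0.0066 without 40C1.

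Under TNF neutralization no gene passed the test. With edgeR's quasi-likelihood test, 0 of 12981 genes (0%) were called at an adjusted p below 0.05, and the lowest adjusted p was 0.895. At an unadjusted p below 0.05 there were 581 genes (4.48%), of which 363 had higher (2.8%) and 218 lower (1.68%) estimates under anti-TNF. That is fewer than the 649 that make up 5% of the genes. DESeq2 and limma voom also called 0 genes, with 683 and 465 at an unadjusted p below 0.05. Without 40C1, the same edgeR test called 0 of 13132 genes (0%), with 207 (1.58%) at an unadjusted p below 0.05 and a lowest adjusted p of 0.9998. DESeq2 and voom called 0 there as well, with 191 and 249 at an unadjusted p below 0.05. The absence of calls thus held without 40C1, and the number of genes at the unadjusted level was lower.

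The intervals show how large an effect could have gone uncalled. For 10241 genes (78.9%) the 95% interval lay inside 2-fold in both directions, and among the 10000 genes whose mean log2 CPM reached 2 this share was 93.5%. Without 40C1 the shares were 78.9% and 96.1%. The intervals hold gene by gene and are not adjusted for the number of genes. The share of all genes whose interval lay inside 1.5-fold was lower, 61% with all libraries and 61.9% without 40C1. The median standard error of a log2 fold change was 0.15 with all libraries and 0.17 without 40C1.

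**Figure D1:**
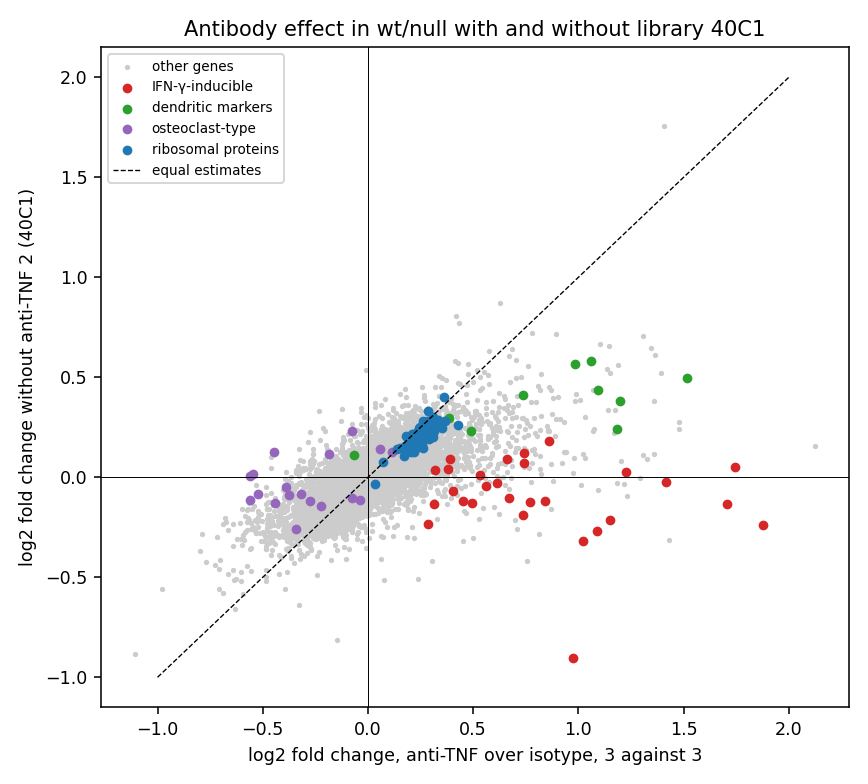
Log2 fold change of anti-TNF over isotype in wt/null for each gene whose mean log2 CPM reached 2, with all 6 libraries (horizontal axis) and without anti-TNF 2 (vertical axis). Grey points are other genes, coloured points 4 gene groups, and the dashed line marks equal estimates; the IFN-γ-inducible genes (red) have high values along the horizontal axis and lie around 0 on the vertical axis, while the ribosomal protein genes (blue) lie near the dashed line.

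Most large estimates came from 40C1. Among the genes whose mean log2 CPM reached 2, 50 had an estimate beyond 2-fold, 49 of them higher and 1 lower under anti-TNF. Without 40C1 only 1 of the 50 was still beyond 2-fold, 37 had the same sign and 13 had the opposite sign. The remaining gene was Slc15a2, a peptide transporter. It measured 5.24, 1.62 and 3.01 CPM in isotype 1 to 3 and 16.7, 3.89 and 5.55 CPM in anti-TNF 1 to 3. Anti-TNF 1 alone was well above the rest and the groups overlapped. The log2 fold change was 1.40 (SE 0.59) with all libraries and 1.76 (SE 0.57) without 40C1, neither of them called. In these bulk samples, fewer cells of a type and less RNA per cell cannot be told apart.

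The transcripts of TNF and its receptors were not called. Tnf (chromosome 17, 35199367 to 35202007) measured 22.8, 27.7 and 20.7 CPM under isotype antibody and 31.3, 105 and 24.1 CPM under anti-TNF. The library 40C1 was the only high one, while anti-TNF 1 lay just above the isotype range and anti-TNF 3 within it. Its log2 fold change was 1.17 (95% interval 0.10 to 2.24) with all libraries and 0.22 (-0.28 to 0.73) without 40C1. Tnfrsf1a, which encodes TNFR1, measured 195, 206 and 194 CPM under isotype antibody and 186, 214 and 211 CPM under anti-TNF. The groups overlapped, and the log2 fold change was 0.037 (-0.16 to 0.23), and 0.0015 (-0.22 to 0.22) without 40C1. For Tnfrsf1b, which encodes TNFR2, the values were 681, 676 and 686 CPM against 587, 722 and 727 CPM. Its log2 fold change was -0.0044 (-0.24 to 0.23), and -0.051 (-0.32 to 0.22) without 40C1. A difference of 1.5-fold in either receptor transcript thus lay outside both intervals.

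Adam17, the protease that sheds TNF, had a log2 fold change of -0.13 in both fits. Ltb, which encodes lymphotoxin beta, a TNF family ligand, was low throughout, at 1.19, 1.97 and 2.25 CPM under isotype antibody and 2.87, 8.76 and 2.99 CPM under anti-TNF. The 3 anti-TNF libraries lay above the 3 isotype libraries, with a log2 fold change of 1.43 (0.20 to 2.66), and of 0.69 (-0.40 to 1.79) without 40C1. For the whole table, anti-TNF libraries all lay above isotype libraries in 5.71% of genes and all below in 4.45%, 10.2% together (8.5% and 7.49% without 40C1). The 2 chains of the IFN-γ receptor showed no call either: Ifngr1 had a log2 fold change of 0.062 (0.036 without 40C1) and Ifngr2 of 0.020 (-0.0070 without 40C1).

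Downstream of the receptors, 25 signalling genes were followed, among them Tradd, Ripk1, the TRAF adaptors, the IκB kinases and the linear ubiquitin ligase. None was called (0 of 25), and 22 had higher estimates with a median log2 fold change of 0.089, against 0.0037 over all genes. Without 40C1, 14 were higher and the median was 0.013. The interval of 24 lay within 2-fold, and of all 25 without 40C1. Traf5, an adaptor, had the lowest p of the group, at 14.9, 17.0 and 19.3 CPM against 18.5, 24.7 and 22.1 CPM. It had a log2 fold change of 0.35 (SE 0.12, unadjusted p = 0.016), and of 0.25 (SE 0.13, unadjusted p = 0.082) without 40C1.

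NF-κB subunits and inhibitors, which NF-κB itself induces in part, had high values in 40C1. Of 14 genes, 0 were called, 11 had higher estimates and the median log2 fold change was 0.24. Without 40C1, 9 were higher and the median was 0.041. Nfkbia, which encodes IκBα, the inhibitor that holds NF-κB in the cytoplasm, measured 207, 210 and 256 CPM under isotype antibody and 235, 450 and 285 CPM under anti-TNF. The groups overlapped, and only 40C1 was well above the isotype range. It had a log2 fold change of 0.53 (0.036 to 1.01), and of 0.21 (-0.17 to 0.59) without 40C1. Tnfaip3, which encodes the feedback inhibitor A20, measured 172, 169 and 228 CPM against 217, 506 and 203 CPM. Again 40C1 was the single high library, with a log2 fold change of 0.70 (-0.079 to 1.49), and of 0.15 (-0.39 to 0.68) without it. Nfkbid, an atypical IκB protein, was at 46.7, 54.3 and 90.7 CPM against 84.7, 165 and 88.5 CPM, and its log2 fold change was 0.82, or 0.44 without 40C1. Nfkb2, which encodes p100, the precursor of p52, measured 147, 154 and 155 CPM against 141, 154 and 158 CPM. Its groups overlapped, and it had a log2 fold change of -0.0061 (-0.17 to 0.15), and of -0.020 (-0.21 to 0.17) without 40C1.

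The promoters of some of these genes hold matches to the sequence through which NF-κB acts. Each stretch below is the 250 bases before a RefSeq start of the gene (build GRCm38.p6), 5′ to 3′ on the strand of the gene, with capitals at the matches to the NF-κB consensus (10 bases, searched on both strands, overlapping matches included). Nfkbia lies at chr12:55492648-55492897 (minus strand), Tnfaip3 at chr10:19015411-19015660 (minus strand) and Nfkb2 at chr19:46304487-46304736 (plus strand, the first of its starts).
Nfkbia: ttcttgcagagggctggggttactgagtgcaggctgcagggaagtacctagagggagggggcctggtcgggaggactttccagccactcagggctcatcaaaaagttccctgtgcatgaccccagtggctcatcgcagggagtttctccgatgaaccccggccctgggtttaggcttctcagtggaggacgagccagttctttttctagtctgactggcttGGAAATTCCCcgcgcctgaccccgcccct
Tnfaip3: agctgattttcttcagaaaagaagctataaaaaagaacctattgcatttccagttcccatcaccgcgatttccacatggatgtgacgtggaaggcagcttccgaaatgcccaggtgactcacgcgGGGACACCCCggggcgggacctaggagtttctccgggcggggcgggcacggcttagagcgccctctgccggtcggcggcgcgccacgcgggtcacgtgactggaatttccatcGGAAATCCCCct
Nfkb2: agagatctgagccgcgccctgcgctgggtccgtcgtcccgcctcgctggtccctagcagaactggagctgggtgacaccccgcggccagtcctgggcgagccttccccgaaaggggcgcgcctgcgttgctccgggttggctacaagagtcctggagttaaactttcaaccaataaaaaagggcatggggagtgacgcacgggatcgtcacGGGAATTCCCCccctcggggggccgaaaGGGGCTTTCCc
A match was found in 9 of 16 windows (56.2%) of NF-κB subunits and inhibitors, from 7 of the 11 members with a window. It was found in 9 of 30 windows (30%) of the NF-κB target list and in 3.9% of all 32851 windows. Both lists hold long-studied NF-κB genes, so these shares describe the lists and say nothing of binding in these cells. Only promoters with a match were shown, so the matches in these 3 were fixed by that choice. The log2 fold changes of their genes with all libraries ran from -0.0061 for Nfkb2 to 0.70 for Tnfaip3. A relation between matches and fold changes was not tested.

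Among 36 NF-κB target genes, 0 were called. Estimates were higher for 28 with a median log2 fold change of 0.27, and for 23 with a median of 0.044 without 40C1. Icam1, an adhesion molecule for leukocytes, measured 185, 213 and 197 CPM under isotype antibody and 201, 328 and 209 CPM under anti-TNF. The groups overlapped, and the log2 fold change was 0.31 (-0.064 to 0.68), and 0.045 (-0.23 to 0.32) without 40C1. Cd83, a surface protein of activated antigen-presenting cells, measured 441, 356 and 471 CPM against 538, 767 and 471 CPM. Here anti-TNF 1 was also above the isotype range while anti-TNF 3 was level with isotype 3, and the log2 fold change was 0.49 (SE 0.21), or 0.26 (SE 0.20) without 40C1. Within libraries titled 40, anti-TNF 1 differed from the isotype libraries by a median of 0.093 over the list, 40C1 by 0.63, and between the libraries titled 46 the median was -0.091.

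**Figure D2:**
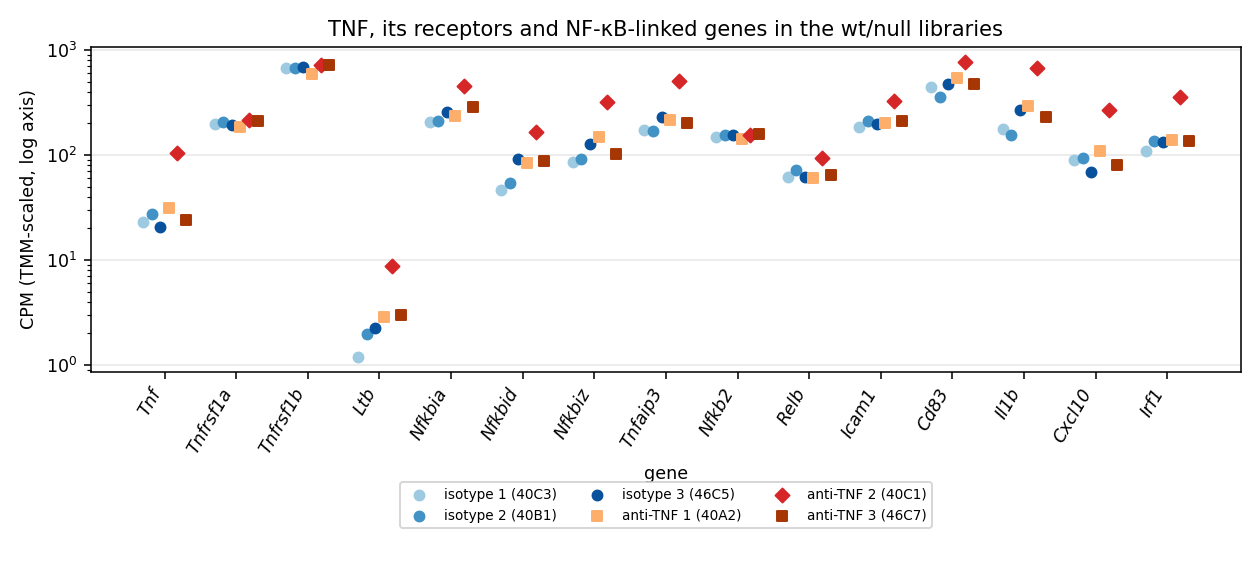
Expression (CPM, log axis) of Tnf, its receptors, Ltb and NF-κB-linked genes in each of the 6 wt/null libraries, with circles for isotype, squares for anti-TNF 1 and 3 and red diamonds for anti-TNF 2 (40C1). The diamond is the highest point for most genes, such as Tnf at 105 CPM and Tnfaip3 at 506 CPM. Some squares lie within the range of the circles and some outside it, and for Ltb and, only just, Irf1 both squares lie above all circles.

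Inflammatory cytokines mostly had higher estimates, with a smaller median without 40C1. Of 16 measured, 0 were called, 13 were higher with a median log2 fold change of 0.59, and 5 (31.2%) had all anti-TNF libraries above all isotype libraries, against 5.71% of all genes. Without 40C1 all 16 had higher estimates with a median of 0.22, and 5 did not overlap (31.2%, against 8.5%). The 3 genes whose sign changed were Csf1, Mif and Il1rn, at -0.26, -0.041 and -0.061 with all libraries and 0.14, 0.056 and 0.0043 without 40C1. Unadjusted p-values below 0.05 were found for 7 with all libraries, where 4.48% of all genes had one, and for 0 without 40C1, where 1.58% had one. Il12b, the shared subunit of IL-12 and IL-23, measured 1.95, 1.33 and 2.56 CPM under isotype antibody and 2.94, 10.6 and 3.26 CPM under anti-TNF. All anti-TNF libraries lay above all isotype libraries, by a log2 fold change of 1.51 (0.47 to 2.56), and of 0.66 (-0.070 to 1.40) without 40C1. Il18, whose product induces IFN-γ in lymphocytes, measured 18.6, 16.8 and 18.0 CPM against 23, 26.6 and 19.5 CPM. It did not overlap and had a log2 fold change of 0.37 (0.056 to 0.68), and of 0.25 (-0.072 to 0.58) without 40C1. Il1b, the precursor of IL-1β, was at 177, 156 and 268 CPM against 291, 669 and 230 CPM. Its groups overlapped, and the log2 fold change of 0.99 (SE 0.46) was 0.38 (SE 0.40) without 40C1. Tnfsf14, which encodes the TNF family ligand LIGHT, had a log2 fold change of 0.87 (SE 0.37), or 0.44 (SE 0.33) without 40C1, again with groups that did not overlap.

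Chemokine genes were likewise not called. Of 12 CC chemokines, 10 had higher estimates in both fits, with a median log2 fold change of 0.47 and of 0.17 without 40C1. Ccl2, which attracts monocytes, measured 19.6, 33.3 and 36.2 CPM under isotype antibody and 42.9, 67.4 and 29.9 CPM under anti-TNF. Anti-TNF 3 lay within the isotype range, and the log2 fold change was 0.65 (0.0012 to 1.31), and 0.29 (-0.27 to 0.85) without 40C1. Of 12 CXC chemokines, 7 were higher with a median of 0.22, and 8 with a median of 0.057 without 40C1. Cxcl1, which attracts neutrophils, measured 7.51, 7.40 and 15.1 CPM against 16, 41.8 and 16.7 CPM. The groups did not overlap, with a log2 fold change of 1.31 (0.27 to 2.35), and of 0.71 (-0.19 to 1.61) without 40C1. Cxcl3, a related neutrophil chemokine, went the other way at a very low level, with 0.40, 0.60 and 1.97 CPM against 0.33, 0.25 and 0.47 CPM. The groups overlapped, and its estimate was -1.51 (-2.95 to -0.058), and -1.32 (-2.97 to 0.34) without 40C1.

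Genes that respond to IFN-γ had high values in the library 40C1 alone. Of 32 IFN-γ-inducible genes, 0 were called and 31 had higher estimates, with a median log2 fold change of 0.74. Without 40C1 10 were higher and the median was -0.12. Their summed level was 2087 to 2412 CPM in the isotype libraries, 2203 and 2243 CPM in anti-TNF 1 and 3, and 5742 CPM in 40C1. Gbp2, a guanylate-binding protein that attacks the vacuoles of intracellular microbes, measured 76.5, 133 and 110 CPM under isotype antibody and 103, 525 and 80.3 CPM under anti-TNF. It had a log2 fold change of 1.15 (-0.31 to 2.61), and of -0.22 (-1.13 to 0.70) without 40C1. Cxcl9, a chemokine for activated T cells, measured 12.8, 39.8 and 20.8 CPM against 17.0, 118 and 9.16 CPM. Its estimate had opposite signs in the fits, at 0.98 (-0.78 to 2.73) and -0.90 (-1.89 to 0.083) without 40C1. Markers of T and NK cells, the main sources of IFN-γ, were also high in 40C1, at a summed 207 CPM against 111 to 156 CPM in the other 5 libraries, and their part in these values was not tested. Guanylate-binding protein genes are close copies of each other, and reads could have been split between them.

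Il12rb1, a chain of the receptors for IL-12 and IL-23, was the gene of this list with the lowest p without 40C1. It measured 1.87, 2.35 and 2.29 CPM under isotype antibody and 0.67, 16.5 and 0.58 CPM under anti-TNF. Anti-TNF 1 and 3 lay below all isotype libraries and 40C1 far above them. The log2 fold change was 1.44 (-0.89 to 3.76) with all libraries and -1.78 (-2.90 to -0.67, unadjusted p = 0.0045) without 40C1, and it was called in neither. Il12rb1 is thus among the genes whose sign rests on 40C1.

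Type I interferon-stimulated genes, which also answer to IFN-γ in part, had higher estimates for all 34 measured, with 0 called and a median log2 fold change of 0.42. Without 40C1, 30 were higher and the median was 0.097. Within libraries titled 40, the median difference of anti-TNF 1 from the isotype libraries was -0.0088, and between the libraries titled 46 it was 0.16. Isg15, a ubiquitin-like antiviral protein, measured 38.5, 32.2 and 45.3 CPM under isotype antibody and 40.3, 91.5 and 54.8 CPM under anti-TNF. Its log2 fold change was 0.69 (SE 0.43), and 0.30 (SE 0.44) without 40C1.

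MHC class II genes, which present peptides to CD4+ T cells, had higher estimates for all 13 measured, with 0 called, a median log2 fold change of 0.49 and 5 whose groups did not overlap (38.5%, against 5.71% of all genes). Without 40C1, 12 were higher, the median was 0.18, and 5 did not overlap (38.5%, against 8.5%). H2-Aa, the α chain of I-A, measured 4419, 4563 and 3808 CPM under isotype antibody and 4629, 8332 and 5113 CPM under anti-TNF. All anti-TNF libraries lay above all isotype libraries, with a log2 fold change of 0.50 (-0.022 to 1.02), and of 0.19 (-0.25 to 0.63) without 40C1. H2-Oa, a chain of the regulator of peptide loading in B cells and dendritic cells, measured 7.83, 6.97 and 6.37 CPM against 11.1, 31.8 and 11 CPM. It did not overlap, at a log2 fold change of 1.35 (0.25 to 2.44), and of 0.65 (-0.22 to 1.52) without 40C1. For 18 genes of MHC class I presentation, 16 were higher with a median of 0.33, and 9 with a median of 0.00049 without 40C1. Reads of the class I H2 genes can be shared between close copies.

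Dendritic cells, which present antigen on MHC class II, had marker genes with higher estimates both with and without 40C1. Of 13 measured, 0 were called, and 12 had higher estimates with a median log2 fold change of 0.98. Without 40C1 all 13 were higher, with a median of 0.41. The groups did not overlap for 6 of 13 (46.2%), all of them higher, against 5.71% of all genes; without 40C1 it was 6 of 13 against 8.5%. Unadjusted p-values below 0.05 were found for 4, where 4.48% of all genes had one, and for 2 without 40C1, where 1.58% had one. The median difference was 0.49 for anti-TNF 1 against the isotype libraries titled 40, 0.37 for anti-TNF 3 against isotype 3, and 1.54 for 40C1. The summed level of the 13 genes, which Itgax dominates, did not separate the groups: it was 1190 to 1277 CPM under isotype antibody and 1145, 1311 and 1639 CPM in anti-TNF 1, 2 and 3.

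Naaa, a lysosomal amidase abundant in conventional dendritic cells, measured 125, 121 and 124 CPM under isotype antibody and 151, 180 and 152 CPM under anti-TNF. Every anti-TNF library exceeded every isotype library, and the isotype libraries were close to each other. Its log2 fold change was 0.39 (0.12 to 0.65, unadjusted p = 0.0078), and 0.30 (0.020 to 0.58, unadjusted p = 0.037) without 40C1. Cd209a, the DC-SIGN homologue of monocyte-derived dendritic cells, measured 43.8, 37.1 and 32.8 CPM against 58.6, 124 and 54.9 CPM. The groups were again separate, at a log2 fold change of 1.06 (0.30 to 1.82), and of 0.58 (0.0043 to 1.16) without 40C1. Kmo, an enzyme of tryptophan breakdown, measured 13.1, 13.9 and 12.7 CPM against 20.3, 39.5 and 18.8 CPM, which were also separate. It had a log2 fold change of 0.98 (0.25 to 1.72), and of 0.56 (-0.044 to 1.17) without 40C1. Naaa, Cd209a, Kmo and Irf4 were named for the lowest p of the list, which made separate groups and even values likely. Irf4, a transcription factor, nonetheless overlapped, at 12.5, 16.1 and 11.8 CPM under isotype antibody and 21.8, 31.5 and 14.0 CPM under anti-TNF. Its log2 fold change was 0.74, and 0.41 without 40C1. Flt3, the receptor on which dendritic cell development depends, measured 27.1, 20.4 and 23.3 CPM against 32, 87.3 and 32.1 CPM. It had a log2 fold change of 1.09 (-0.033 to 2.22), and of 0.44 (-0.59 to 1.47) without 40C1. Xcr1 and Clec9a, which mark cross-presenting dendritic cells, overlapped between the groups, at 0.47 to 2.35 and 1.91 to 4.09 CPM under isotype antibody and 1.45 to 5.36 and 3.31 to 16.5 CPM under anti-TNF. Their log2 fold changes were 1.35 (SE 0.79) for Xcr1 and 1.52 (SE 0.77) for Clec9a, and without 40C1 0.95 (SE 0.87) and 0.50 (SE 0.69).

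The same markers in null/null had a median log2 fold change of 0.42 under anti-TNF, and of 0.21 without 40C2. For a difference between the genotypes in the antibody effect, 0 of the 13 had an unadjusted p below 0.05, with or without 40C1. Among all genes 1.51% had one, and 1.59% without 40C1, so a count of 0 among 13 says little. Whether more dendritic cells were sorted or each held more of these transcripts cannot be told apart here, and the part of either in the values of cytokine and MHC class II genes was not tested.

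**Figure D3:**
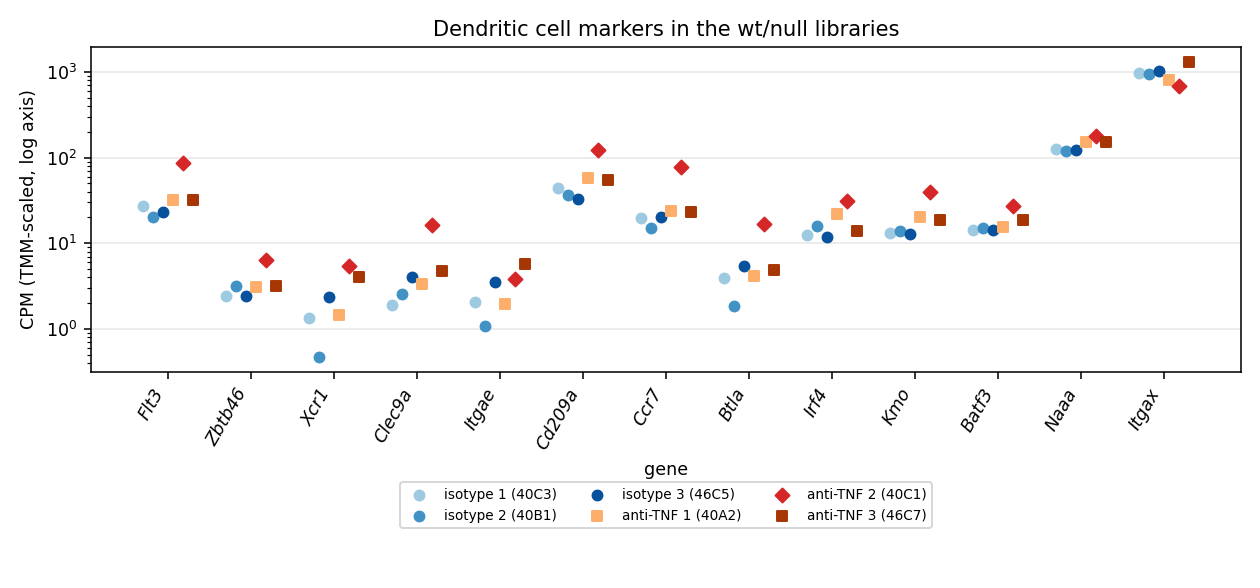
Expression (CPM, log axis) of the 13 dendritic cell markers in each wt/null library, with circles for isotype, squares for anti-TNF 1 and 3 and red diamonds for anti-TNF 2 (40C1). For Naaa, Cd209a, Kmo and Flt3 all 3 anti-TNF points lie above all 3 circles, whereas for Itgax the groups overlap.

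Transcripts of other cells moved mostly with 40C1. Of 13 markers of T and NK cells, all 13 had higher estimates with a median log2 fold change of 2.14, and 8 with a median of 0.14 without 40C1. The groups did not overlap for 4 of the 13 (30.8%), all of them higher, against 5.71% of all genes. Without 40C1 it was also 4 of 13 (30.8%, against 8.5%). Cd8a measured 0.64, 0.34 and 0.69 CPM under isotype antibody and 0.74, 5.65 and 1.09 CPM under anti-TNF. Ifng, the gene for IFN-γ itself, was at 0.28, 0.043 and 0.069 CPM against 0.33, 2.91 and 0.43 CPM, so 40C1 was the only library above 1 CPM for it. Its log2 fold change of 3.18 (SE 1.26) was 1.52 (SE 1.22) without 40C1. Jchain, the joining chain of secreted antibodies and a plasma cell gene, was at 0.12, 0.38 and 1.80 CPM against 1.56, 16.9 and 1.44 CPM. The estimate for it was 3.06 (SE 1.18), and 0.93 (SE 0.94) without 40C1. Fibroblast markers were low in 40C1 and in anti-TNF 3: Col1a1 measured 402, 359 and 350 CPM against 394, 130 and 212 CPM, and 8 of 9 markers had lower estimates with a median of -0.42, or 6 of 9 with -0.15 without 40C1. Of 5 neutrophil markers tested, S100a8, Retnlg, Cxcr2 and Ltf were at or below 1.87 CPM in every wt/null library. The fifth, Csf3r, the G-CSF receptor, which monocytes also express, lay between 119 and 144 CPM in the other libraries and at 196 CPM in 40C1, with a log2 fold change of 0.24 (SE 0.22), and of 0.022 (SE 0.21) without 40C1.

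**Figure D4:**
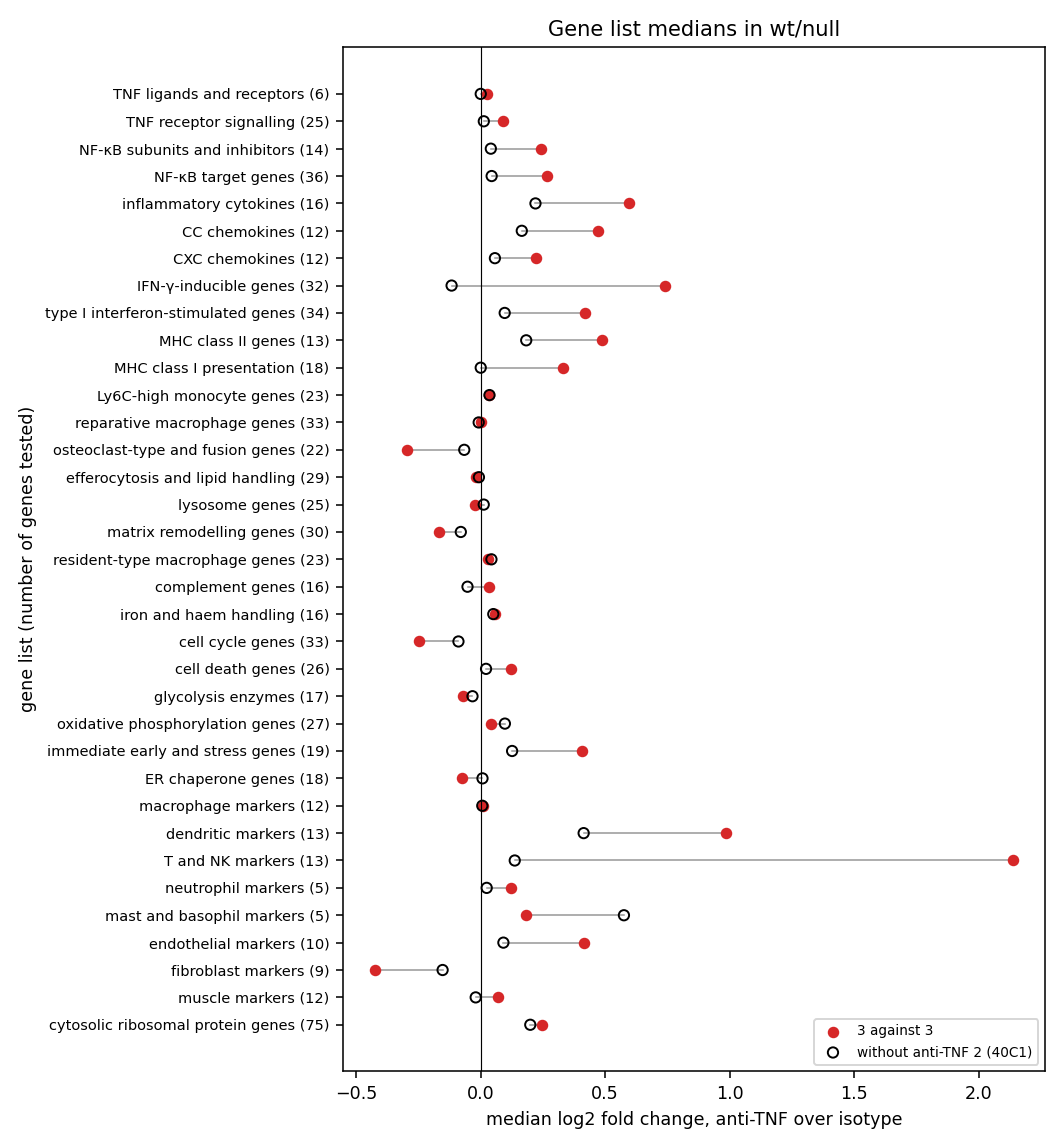
Median log2 fold change of anti-TNF over isotype for gene lists, with all libraries (filled red points) and without anti-TNF 2 (open circles), and the number of genes tested in brackets. IFN-γ-inducible genes run from 0.74 to -0.12 and T and NK markers from 2.14 to 0.14, while macrophage markers, reparative genes and Ly6C-high monocyte genes lie near 0 in both.

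Genes of macrophage states had medians near that of all genes. Of 23 Ly6C-high monocyte genes, 12 were higher in both fits, with a median log2 fold change of 0.036 in both. Ccr2, the receptor by which monocytes enter tissue, measured 442, 416 and 434 CPM under isotype antibody and 654, 796 and 415 CPM under anti-TNF. Anti-TNF 1 and 2 were well above the isotype range and anti-TNF 3 just below it, and the log2 fold change was 0.53 (-0.033 to 1.09), and 0.31 (-0.26 to 0.88) without 40C1. Of 33 reparative macrophage genes, 18 were higher with a median of 0.0034, and 16 with a median of -0.0077 without 40C1. Igf1, a growth factor for regenerating fibres, measured 296, 262 and 210 CPM against 255, 180 and 212 CPM. It had a log2 fold change of -0.25 (-0.61 to 0.11), and of -0.13 (-0.51 to 0.24) without 40C1. Mrc1, the mannose receptor CD206, had a log2 fold change of -0.20 (-0.48 to 0.081), and of -0.10 (-0.39 to 0.19) without 40C1. Trem2, a lipid receptor of phagocytes, was at 0.0035 (-0.33 to 0.33), and at 0.093 (-0.26 to 0.44) without 40C1. For these 3 genes a 2-fold difference lay outside the interval in both fits.

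Genes for the uptake and breakdown of dead cells were also level. Of 29 genes of efferocytosis and lipid handling, 13 were higher with a median log2 fold change of -0.019, and 14 with -0.0068 without 40C1. All 25 lysosome genes had intervals within 2-fold in both fits, with medians of -0.023 and 0.013. Of 23 resident-type genes, 12 were higher with a median of 0.030, and 14 with 0.043 without 40C1. Within that list Cd209d, a lectin of the DC-SIGN family, measured 1.95, 1.28 and 1.21 CPM under isotype antibody and 3.24, 3.40 and 2.68 CPM under anti-TNF. The groups were separate, at a log2 fold change of 1.07 (0.30 to 1.83), and of 1.00 (0.14 to 1.86) without 40C1, so this low-level difference did not come from 40C1 alone. Clec10a, a lectin of macrophages and dendritic cells, measured 122, 105 and 94.5 CPM against 140, 220 and 134 CPM. It was separate too, at 0.62 (-0.026 to 1.27), and at 0.35 (-0.30 to 1.01) without 40C1. Cd209 genes are close copies, and their reads may be shared.

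Osteoclast-type genes had a wide spread between libraries of the same group. Of 22, 4 were higher and 18 lower, with a median log2 fold change of -0.30, and without 40C1 10 were higher with a median of -0.066. Mmp9, a gelatinase, measured 264, 294 and 1091 CPM under isotype antibody and 176, 6.80 and 1025 CPM under anti-TNF. Ctsk, a collagen-degrading cathepsin, measured 456, 447 and 1233 CPM against 318, 21.0 and 1124 CPM. For both genes the libraries titled 46 were high in each group and 40C1 was far below all others. The intervals were correspondingly wide, from -3.61 to 2.71 around an estimate of -0.45 for Mmp9 and from -3.24 to 2.15 around -0.55 for Ctsk. Without 40C1 both estimates changed sign, to 0.13 (-2.78 to 3.03) for Mmp9 and 0.018 (-2.46 to 2.49) for Ctsk. Mmp14, a membrane-bound collagenase, was steadier, at 490, 516 and 507 CPM against 400, 352 and 444 CPM. All anti-TNF libraries lay below all isotype libraries, with a log2 fold change of -0.34 (-0.58 to -0.098, unadjusted p = 0.0098), and of -0.26 (-0.51 to -0.0051, unadjusted p = 0.046) without 40C1. Of 30 matrix remodelling genes, which include Mmp14, 8 were higher in both fits, with medians of -0.17 and, without 40C1, -0.079.

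Cell cycle genes had lower estimates. Of 33, 31 were lower with 0 called and a median log2 fold change of -0.25, and without 40C1 25 were lower with a median of -0.089. Between the libraries titled 46 the median was -0.27, while for anti-TNF 1 against the isotype libraries titled 40 it was 0.058, so anti-TNF 1 and 3 pointed in different directions. Mcm2, a subunit of the replicative helicase, measured 31.6, 36.5 and 36.8 CPM under isotype antibody and 28.5, 22.5 and 31.5 CPM under anti-TNF. The groups were just separate, at a log2 fold change of -0.35 (-0.69 to -0.0074), and of -0.22 (-0.56 to 0.12) without 40C1. Immediate early and stress genes, which dissociation of tissue also induces, had higher estimates for all 19 measured in both fits, with medians of 0.41 and, without 40C1, 0.13. Here too anti-TNF 1 and 3 pointed in different directions, with within-title medians of 0.24 and -0.17. Of 27 oxidative phosphorylation genes, 18 were higher with a median of 0.042, and 25 with a median of 0.097 without 40C1. All 27 had intervals within 2-fold.

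Other pathways and cell types had no called gene either (0 in each list). Of 26 cell death genes, 19 were higher with a median log2 fold change of 0.12, and 16 with 0.022 without 40C1. Of 18 ER chaperone genes, 6 were higher with a median of -0.074, and 10 with 0.0075 without 40C1, and all 18 intervals lay within 2-fold. Of 17 glycolysis enzymes 6 were higher in both fits, with medians of -0.070 and, without 40C1, -0.033. Of 16 iron and haem genes 10 were higher in both, with medians of 0.060 and, without 40C1, 0.051. Of 16 complement genes, 9 were higher with a median of 0.034, and 7 with -0.053 without 40C1. C3, the central complement protein, measured 234, 296 and 283 CPM under isotype antibody and 220, 362 and 216 CPM under anti-TNF. Without 40C1, its 2 anti-TNF libraries lay below all isotype libraries, and the log2 fold change of -0.029 (-0.43 to 0.37) was -0.32 (-0.60 to -0.037).

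Among markers of cells outside the macrophage lineage, those of endothelial cells had a median log2 fold change of 0.42 over 10 genes, and of 0.091 without 40C1, with 8 and 6 of them higher. Egfl7, a secreted endothelial protein, was the only 1 of the 10 (10%) with separate groups with all libraries. Among all genes 5.71% were separate and higher, and 10.2% separate in either direction. Egfl7 was named for its low p, and measured 1.11, 1.37 and 1.42 CPM under isotype antibody and 2.27, 1.97 and 2.56 CPM under anti-TNF. Its estimate was 0.80 (0.23 to 1.37), and 0.89 (0.24 to 1.54) without 40C1. Ptprb, an endothelial phosphatase, had a lower estimate, of -0.36 (SE 0.22), and of -0.52 (SE 0.24) without 40C1, where its groups did not overlap. Ear2, a ribonuclease of eosinophils and macrophages with close copies in the genome, was separate too, at 1.71, 2.57 and 2.29 CPM against 2.87, 3.11 and 5.20 CPM. Its estimate was 0.77 (0.058 to 1.48), and 0.88 (0.10 to 1.66) without 40C1. Of the other eosinophil markers, Ccr3, the eotaxin receptor, was separate in the opposite direction, at -0.56 (SE 0.54), and at -0.36 (SE 0.60) without 40C1, and Siglecf overlapped, at 0.11 and, without 40C1, 0.23. The medians were 0.11 over 3 eosinophil markers, 0.18 over 5 of mast cells and basophils, 0.12 over 5 of neutrophils, 0.070 over 12 of muscle, 1.72 over 2 of B and plasma cells and -0.15 over 4 of red cells and platelets. Without 40C1 they were 0.23, 0.57, 0.024, -0.020, 0.62 and 0.057.

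Most genes with the lowest p-values had small and even differences of similar size without 40C1. The exception was Slc15a2, described above, whose difference was large and uneven and whose groups overlapped. All were picked by lowest p in these same libraries, in either fit. Such a choice favours even differences, separate groups and similar estimates in both fits, so these traits say little about the genes. Among those with lower estimates, Glg1, a Golgi protein that binds E-selectin and growth factors, measured 170, 168 and 154 CPM under isotype antibody and 136, 124 and 129 CPM under anti-TNF. The groups were separate, with a log2 fold change of -0.34 (-0.51 to -0.16, unadjusted p = 0.0011), and of -0.31 (-0.51 to -0.11, unadjusted p = 0.0060) without 40C1. Plxna1, a semaphorin receptor, measured 207, 195 and 198 CPM against 144, 117 and 168 CPM. It was separate as well, at -0.48 (-0.74 to -0.23), and at -0.36 (-0.59 to -0.13) without 40C1. Dennd4c, an activator of Rab GTPases, measured 92.8, 73.8 and 80.9 CPM against 61.2, 57.4 and 58.5 CPM, at -0.48 (SE 0.12), and at -0.46 (SE 0.13) without 40C1. Cdk6, Clcn5, Lmbr1, Uhmk1, Dnaaf5 and Spen completed this set, with log2 fold changes of -0.63, -0.59, -0.63, -0.49, -0.41 and -0.27. Without 40C1 these were -0.51, -0.59, -0.66, -0.50, -0.40 and -0.28. In each of the 9 genes all anti-TNF libraries lay below all isotype libraries, as in 4.45% of all genes (7.49% without 40C1). Their choice by lowest p made this likely.

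Among those with higher estimates, Aimp1, a scaffold of the aminoacyl-tRNA synthetase complex, measured 47.6, 50.9 and 47.6 CPM under isotype antibody and 56.8, 66.8 and 58.7 CPM under anti-TNF. The groups were separate, with a log2 fold change of 0.32 (0.15 to 0.49, unadjusted p = 0.0015), and of 0.25 (0.068 to 0.42, unadjusted p = 0.011) without 40C1. Btf3, part of the complex that escorts nascent proteins at the ribosome, measured 200, 187 and 183 CPM against 233, 242 and 218 CPM, at 0.28 (SE 0.080), and at 0.25 (SE 0.090) without 40C1. Snrpe, a core protein of the spliceosome, measured 31.3, 30.0 and 32.2 CPM against 38.4, 39.3 and 37.8 CPM, at 0.30 and, without 40C1, 0.29. Rpl39, of the large ribosomal subunit, measured 120, 136 and 118 CPM against 161, 156 and 147 CPM, at 0.31 and, without 40C1, 0.30. Slc25a38, Ppp1r11, Pigh, Zfp956, Tsen15, Rab29, Atp5h and Ngrn were also separate, between 0.26 for Atp5h and 0.53 for Zfp956, and without 40C1 between 0.26 for Ppp1r11 and 0.57 for Tsen15. None of these genes was called in either fit, where the lowest adjusted p-values were 0.895 and 0.9998. Choice by lowest p made their separation likely. Over all genes, anti-TNF libraries all lay above isotype libraries in 5.71% (8.5% without 40C1).

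Several of these genes have short transcripts, and the 9 with lower estimates mostly have long ones, so length was examined after the values were seen. Spen has an annotated transcript of 12299 bases, Cdk6 of 11525 and Glg1 of 7021, whereas Snrpe has 669, Rpl39 612 and Aimp1 1126 (longest transcript in GENCODE M21). Over the 7322 genes whose mean log2 CPM reached 4 and a known length (99.8% of such genes), the log2 fold change of anti-TNF over isotype correlated with transcript length at a Spearman rho of -0.41, and of -0.56 without 40C1. This is across genes of the same libraries, so the points are not independent. The median log2 fold change was 0.14 for the 341 genes of up to 1 kb and -0.090 for the 1075 genes over 6 kb. Without 40C1 these medians were 0.13 and -0.11, so the trend did not come from 40C1.

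By library, the trend was uneven. The rho of expression deviation with length was 0.23, 0.15 and 0.25 in isotype 1 to 3, and 0.024, -0.12 and -0.49 in anti-TNF 1 to 3, so all isotype libraries lay above all anti-TNF libraries and anti-TNF 3 had the steepest slope. In the null/null libraries it ran from -0.27 to 0.29 with both antibodies mixed along that range, and the antibody fold change there correlated with length at 0.15. The part of library preparation or RNA quality in this trend was not tested.

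**Figure D5:**
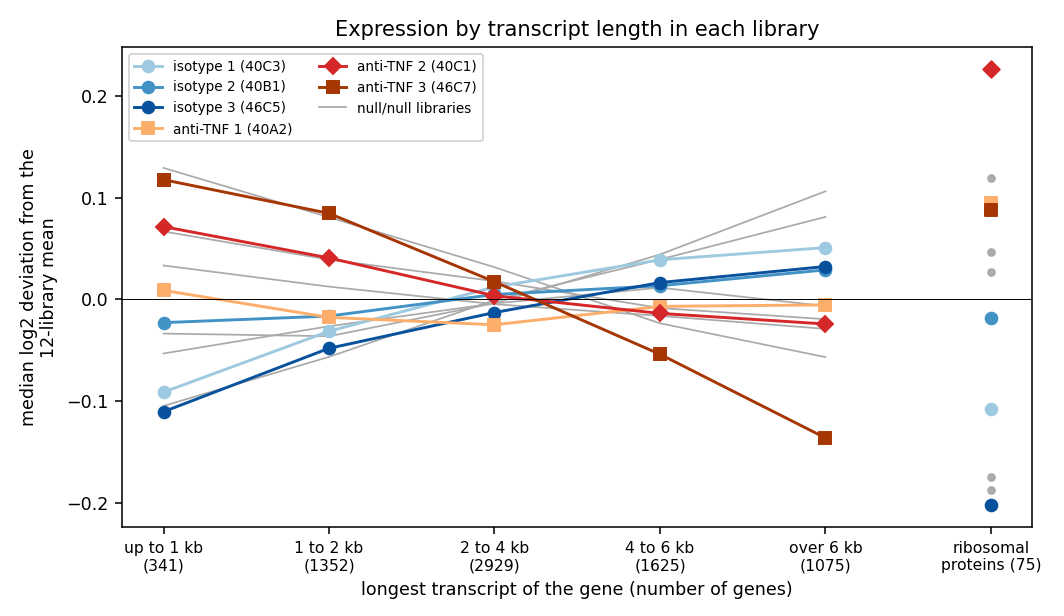
Median log2 deviation of each library from the mean of the 12 libraries for genes grouped by the longest annotated transcript, and for 75 cytosolic ribosomal protein genes at the right, with blue circles for isotype, orange and brown squares for anti-TNF 1 and 3, red diamonds for anti-TNF 2 and grey for null/null. The isotype lines run upward from short to long genes and the anti-TNF 3 line runs downward, while the grey lines run in both directions and anti-TNF 3 lies below all of them for genes over 6 kb, at -0.14.

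Cytosolic ribosomal protein genes, also grouped after their values were seen, had small and even higher estimates. Of 75, 0 were called, 74 were higher with a median log2 fold change of 0.25, and 62 (82.7%) had all anti-TNF libraries above all isotype libraries, against 5.71% of all genes. Without 40C1, 73 were higher with a median of 0.20 and 64 did not overlap (85.3%, against 8.5%). Their summed level was 30624 to 34853 CPM under isotype antibody and 37517, 41106 and 37273 CPM in anti-TNF 1 to 3. The within-title medians were 0.15 for anti-TNF 1, 0.29 for 40C1 and 0.28 for anti-TNF 3. The 75 genes share length, abundance and regulation, so they are not 75 separate observations, and many have processed pseudogenes that can share their reads. Rpl14 measured 330, 336 and 296 CPM against 381, 379 and 378 CPM, at 0.24 in both fits. Rpl9 measured 482, 506 and 447 CPM against 585, 652 and 551 CPM, at 0.32, and at 0.25 without 40C1.

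In the null/null libraries the ribosomal protein genes had a median log2 fold change of -0.014 under anti-TNF, and of -0.028 without 40C2. Their summed level overlapped between the antibody groups, at 31187 to 38008 CPM under isotype antibody and 31090 to 37599 CPM under anti-TNF. The highest wt/null library, 40C1, lay above all of them, while anti-TNF 1 and 3, at 37517 and 37273 CPM, lay within both ranges. For the difference between genotypes, 3 of the 75 had an unadjusted p below 0.05, against 1.51% of all genes, at a median of 0.26. Without 40C1 it was 2 of the 75, against 1.59% of all genes, at a median of 0.20. Short genes that are not ribosomal showed a weaker form of the pattern. Of 286, 65 did not overlap and were higher (22.7%, against 5.71% of all genes), and 90 without 40C1 (31.5%, against 8.5%). Of 76 mitochondrial ribosomal protein genes, 58 were higher with a median of 0.065 and 60 with 0.072 without 40C1. The part of transcript length in the ribosomal protein values was not tested.

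The anti-TNF libraries other than 40C1 had little in common across all genes. The difference of anti-TNF 1 from the isotype libraries titled 40 and that of anti-TNF 3 from isotype 3 correlated at a Pearson r of -0.09 over 9962 genes (Spearman rho -0.081), with no library shared between the 2 differences. Against null/null, where no library is shared either, the antibody log2 fold changes correlated at r = 0.49 over 10000 genes. Without 40C1 and 40C2 the value was 0.115 over 10004 genes. These are descriptions across genes.

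The antibody effect was not shown to differ between the genotypes for any gene. The interaction called 0 of 12981 genes (0%) in edgeR, with 196 (1.51%) at an unadjusted p below 0.05. DESeq2 and voom called 0, with 192 and 398 at that level. Without 40C1 edgeR called 0 with 209 at that level. Tsen15, a subunit of the tRNA splicing endonuclease, had a difference of 0.60 on the log2 scale (SE 0.21, unadjusted p = 0.014), from a log2 fold change of 0.48 in wt/null and -0.13 in null/null. Without 40C1 the difference was 0.69 (SE 0.22). Tgfbr1, a receptor for TGF-β, had a difference of -0.50 (SE 0.20), from -0.25 in wt/null and 0.26 in null/null. Its values in wt/null were 397, 378 and 388 CPM under isotype antibody and 370, 299 and 311 CPM under anti-TNF, which were separate, and its log2 fold change without 40C1 was -0.19 (-0.52 to 0.15), with a difference between genotypes of -0.44 (SE 0.21). Tsen15 and Tgfbr1 were named for their wt/null values, which enter this difference, so they are not ranked by it. Krtcap2, for example, had a lower p, at a difference of 0.37 (SE 0.11, unadjusted p = 0.0063, edgeR). For Tnf the difference between genotypes was 0.89 (SE 0.67), and -0.057 (SE 0.31) without 40C1. For Naaa it was 0.23 (SE 0.17), and 0.14 (SE 0.17) without 40C1.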

How the data were processed

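Counts per gene symbol were deposited by the authors as a table of whole numbers, not normalized, for 12 libraries with 23.2 to 29.9 M counts each. The submitters' processing notes name bcl2fastq 2.20, STAR, Bowtie and build mm10, and libraries came from a stranded mRNA kit per the labels' protocols. No source used here names the counter, its strand setting or the annotation, so reads of overlapping antisense genes may be shared. All 12 columns matched a sample by title.

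Genes were kept by filterByExpr (12981 of 24421), scaled by TMM and fitted with edgeR 4.0.16 (R 4.3.3) robust quasi-likelihood on 4 group means of 12 samples, two-sided, with Benjamini-Hochberg adjustment over all genes. The fit without 40C1 was filtered anew (13132 genes). The scripts were tested on simulated data. DESeq2 1.42.0, limma 3.58.1 (voom with quality weights), other scaling, filters, the title number and left-out libraries were alternatives. Intervals are 95% and pointwise. CPM values are TMM-scaled. Positions and promoters are from RefSeq (GRCm38.p6).

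Named were Ifngr1, Ifngr2, Tnf and its receptors, the 8 genes of lowest unadjusted p in each direction and fit (mean log2 CPM from 2), up to 4 genes of each of 37 lists by lowest p in either fit, and markers and osteoclast-type genes as values. Csf1r, Adgre1, Nfkb2, Icam1, Gbp2, H2-Aa, Igf1, Mrc1, Trem2, Csf1, Mif, Il1rn, Rpl14 and Rpl9 were named after their values were seen. The members and lists were chosen with earlier results of these data known. Of 648 listed genes, 643 matched. Genes can be in several lists.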

Additional observations from a re-analysis of the deposited data

How the results depend on the processing

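The counts of called genes were 0 higher and 0 lower in every fit run, and the interaction called 0 in each fit that allowed it. With 1 wt/null library left out in turn, the called genes ran from 0 to 0, and the genes at an unadjusted p below 0.05 from 207 (without 40C1) to 1240 (without anti-TNF 1), against 581 with all libraries. The count was 978 without anti-TNF 3 and 312 without isotype 1, so it moved by over 1.5 times with each of these 4 libraries. It was 565 in libraries titled 40 alone, 617 with the title number as a term, 481 with the wt/null libraries alone and 543 to 647 with other filters. Without 40C1, 10 of the 162 genes named by lowest p or as ligands and receptors, and 7 of 37 list medians, had the opposite sign. With RLE scaling, DESeq2 or no filter 0 of either did, and with voom 7 and 6 did. Genes named outside the 162 also changed sign without 40C1, among them Gbp2, Mmp9, Ctsk, Csf1, Mif, Il1rn and Adgre1. Fits with the title number as a term and without 40C1, or without 40C1 and 40C2, were chosen after seeing the data and called 0, with 221 and 296 genes at that level. No paired analysis was possible because the replicate numbers follow the order of the samples and pair nothing across groups. The median standard error was 0.15 with all libraries and 0.17 without 40C1, which left a group of 3 with 2 libraries. Not every interval widened: that of Tnf was narrower without 40C1, and the share of all genes with an interval inside 2-fold was 78.9% in both fits.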
